A study of Mus musculus with 3 samples.

Results

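The Ifi200 family is a cluster of interferon-inducible genes on mouse chromosome 1, in the region of the lupus susceptibility interval Sle1. Its 10 members here (Ifi202b, Ifi203, Ifi204, Ifi205, Ifi207, Ifi208, Ifi209, Ifi213, Mndal and Aim2) were taken by gene name from the 32285 genes listed for each library, and 9 of the 10 had at least 1 UMI. They were measured in splenocytes of 3 single-cell 5′ RNA-sequencing libraries, with 1 library per group, so no difference between groups could be tested. The control library held male sham-treated and female C57BL/6 mice. The Ang II library held C57BL/6 mice given angiotensin II, a pressor hormone, with placebo or with 2-HOBA, a scavenger of reactive lipid aldehydes. The B6.SLE123 library held mice, female by the paper's account, of the lupus-prone strain B6.SLE123, also with placebo or 2-HOBA. This strain is a C57BL/6 congenic that carries the lupus intervals Sle1, Sle2 and Sle3. Minipumps delivered angiotensin II at 490 ug/kg/min, as the labels state it, or sham for 2 weeks from 10 weeks of age, and B6.SLE123 mice were treated for 6 weeks from 7 weeks of age. All mice were 12 to 14 weeks old, spleens were depleted of T cells with CD3 microbeads, and cells of 3 mice per condition were combined before they were marked with hashtag antibodies. Each library carried 6 hashtags that the labels do not tie to a condition. The 6 hashtag populations are therefore given below only as the spread within a library, and placebo and 2-HOBA were not compared. Sex, sham treatment and 2-HOBA differed in part between the libraries and cannot be told apart from group.

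Proteins of this family share a DNA-binding HIN domain, and most also have a pyrin domain that binds other proteins. AIM2 senses DNA in the cytosol and assembles an inflammasome with the adaptor ASC, whereas several of the others act in the nucleus on transcription and on the interferon response to DNA. Many of the genes are themselves induced by interferon, and Ifi202b has been studied as a lupus candidate gene of the Sle1 region.

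The members lay between positions 173350879 and 174031810 of chromosome 1 (GRCm38, GENCODE annotation), a span of 0.681 Mb. Aim2 stood at the proximal end (173350879 to 173466040, plus strand). Ifi213 (173566283 to 173599274, minus strand), Ifi209 (173630917 to 173647928, plus) and Ifi208 (173673675 to 173698395, plus) followed. Ifi207 (173723427 to 173741747), Ifi204 (173747293 to 173766943), Mndal (173849126 to 173942491), Ifi203 (173920407 to 173942672), Ifi202b (173962568 to 173982744) and Ifi205 (174011998 to 174031810) were all on the minus strand. Mndal overlapped Ifi203 by 22085 bases and its neighbour Ifi211 by 16702 bases on the same strand.

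Because the genes are close copies, the share of each member's transcript that another gene also holds was computed in 90-base windows over the first 600 bases. This share was 49.0% for Ifi204, nearly all of it with Ifi211, and 29.1% for Ifi208, mostly with Ifi206. It was 18.4% for Ifi209 (with Ifi214), 8.71% for Ifi203 (with Mndal), 7.60% for Ifi213 (with Ifi208), 7.44% for Mndal and 3.72% for Ifi207. Aim2, Ifi205 and Ifi202b had 0% in common with any other gene. Counts of Ifi204 and Ifi208 are therefore the most uncertain, since reads in shared windows cannot be placed.

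Stretches just upstream of 4 members are shown because Ifi208 and Ifi213 had the highest ratios between B cells with many and with no UMIs of interferon-response genes, as described below, Aim2 had the lowest, and Ifi209 was higher in such cells without holding the motif (RefSeq promoter table, GRCm38.p6). Capitals mark a match to the interferon-stimulated motif GAAANNGAA, where N is any base, searched on both strands. The stretches are Ifi208 at chr1:173673415-173673664 (plus strand), Ifi213 at chr1:173599275-173599522 (minus strand), Ifi209 at chr1:173630609-173630858 (plus strand) and Aim2 at chr1:173420354-173420570 (plus strand), each written 5′ to 3′ on the strand of its gene.
Ifi208: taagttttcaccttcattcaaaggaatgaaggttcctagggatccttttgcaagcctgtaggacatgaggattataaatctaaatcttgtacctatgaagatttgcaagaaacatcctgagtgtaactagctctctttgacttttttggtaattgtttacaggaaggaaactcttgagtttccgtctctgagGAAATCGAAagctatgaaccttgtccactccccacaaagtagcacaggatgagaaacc
Ifi213: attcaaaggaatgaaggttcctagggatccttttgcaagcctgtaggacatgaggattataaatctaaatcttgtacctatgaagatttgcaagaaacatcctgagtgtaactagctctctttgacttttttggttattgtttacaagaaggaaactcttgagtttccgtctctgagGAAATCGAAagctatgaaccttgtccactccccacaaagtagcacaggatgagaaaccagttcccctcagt
Ifi209: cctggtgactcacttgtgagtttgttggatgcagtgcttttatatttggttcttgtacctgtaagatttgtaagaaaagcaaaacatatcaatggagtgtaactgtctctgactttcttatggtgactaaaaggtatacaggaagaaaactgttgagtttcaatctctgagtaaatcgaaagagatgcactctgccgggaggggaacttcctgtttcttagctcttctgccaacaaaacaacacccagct
Aim2: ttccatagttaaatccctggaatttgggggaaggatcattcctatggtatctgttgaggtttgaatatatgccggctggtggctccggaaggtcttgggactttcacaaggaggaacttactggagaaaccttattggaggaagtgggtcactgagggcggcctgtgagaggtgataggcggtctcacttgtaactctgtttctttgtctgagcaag

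The Ifi208 and Ifi213 stretches were near copies, with 87.9% identity over the 250 bases before the start, and held the same match. In windows of 300 bases (250 before and 50 after the start), 6 of the 9 members with an entry in the table had a match: Ifi213, Ifi208, Ifi207, Mndal, Ifi203 and Ifi205. Aim2, Ifi209 and Ifi202b had no match in this window. For Aim2 this holds only for the RefSeq start, which lies inside the GENCODE span of the gene given above. Of all 27025 genes in the table, 9.76% had a match in at least 1 window, and of all 32851 windows 8.56% did. The other close pairs of upstream stretches were Mndal with Ifi203 (89.3% identity) and Ifi209 with its neighbour Ifi214 (94.4%).

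The libraries held 18218 (control), 16062 (Ang II) and 20691 (B6.SLE123) barcodes and between 44146350 and 63516694 gene UMIs, and values are given in this order throughout. After the limits on cells, 15700, 14023 and 16708 cells with a median of 1759, 2724 and 1888 UMIs were kept. Between 415 and 496 barcode sequences were shared by each pair of libraries. Cells were put in classes by 8 marker genes each, and 82.7%, 81.1% and 74.2% of kept cells were B cell-like, with 6.71%, 7.11% and 13.1% in no class. All 8 B cell markers were detected and 5 of them were among the 10 leading genes of the class. Expression is given as CPM, the gene's count for every 1000000 UMIs summed over the cells of a class, without division by transcript length because 5′ libraries count molecule ends. Intervals are exact 95% intervals for counting error only, and do not cover differences between mice or libraries.

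Ifi202b had 0 UMIs in all 3 libraries. In B cell-like cells, where depth was greatest, 0 UMIs allowed up to 0.110, 0.0837 and 0.101 CPM, taking 3 counts as the limit. The same limit allows a UMI in up to 0.0231%, 0.0264% and 0.0242% of B cell-like cells, which bounds cells with a UMI and not cells that express the gene. Whether reads of the B6.SLE123 allele map to the reference was not tested, so the 0 of that library bounds only transcripts that do. Mapping was not tested for the other members or for their relatives Ifi206, Ifi211 and Ifi214 either. Their B6.SLE123 levels and ratios below carry the same limit.

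B cell-like cells expressed 6 members at levels from 31.1 to 304 CPM, and the family sum was lowest in the B6.SLE123 library. Together the 10 members had 943, 993 and 811 CPM, from 25741, 35577 and 24164 UMIs. At least 1 member UMI was found in 77.5%, 87.8% and 76.2% of B cell-like cells, and in 58.3%, 59.7% and 55.2% once every cell was thinned to 1000 UMIs. The log2 ratio of the family sum against control was -0.22 [-0.24, -0.19] in B6.SLE123 and 0.07 [0.05, 0.10] in Ang II. Across hashtag populations the family sum (lowest, median and highest) was 888, 947 and 1017 CPM in control, 927, 997 and 1087 in Ang II and 718, 837 and 874 in B6.SLE123. The 6 B6.SLE123 populations were thus all below the 6 control populations, as was the case for 10.3% of all 11343 genes tested. These sums include the germinal centre B cell-like cells described below, and whether the separation holds without them was not tested. Ang II and control overlapped.

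Ifi203 and Mndal, which encode nuclear proteins of the family, and Ifi209 gave most of the family's UMIs. Ifi203 had 304, 286 and 256 CPM, with hashtag populations from 281 to 347 (median 297), 258 to 315 (289) and 228 to 292 (258). Its log2 ratio to control was -0.25 [-0.29, -0.20] in B6.SLE123 and -0.09 [-0.13, -0.05] in Ang II. The B6.SLE123 populations lay lower but overlapped those of control. Mndal had 278, 300 and 251 CPM, with populations from 264 to 294, 285 to 329 and 228 to 277. Its log2 ratio was -0.14 [-0.19, -0.10] in B6.SLE123 and 0.11 [0.07, 0.15] in Ang II, again with overlap. Ifi209 had the lowest ratio in B6.SLE123 of the members with at least 50 UMIs, with 243, 277 and 188 CPM and populations from 207 to 270, 256 to 305 and 149 to 208. Its log2 ratio was -0.36 [-0.42, -0.31] in B6.SLE123 and 0.19 [0.15, 0.24] in Ang II, and the B6.SLE123 and control ranges met only at their edge, between 207 and 208 CPM.

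Aim2, the inflammasome sensor, was level across the libraries, at 48.2, 48.1 and 47.9 CPM. Its hashtag populations spanned 42.0 to 51.6, 43.7 to 55.6 and 44.1 to 50.6 CPM, and its log2 ratio was -0.01 [-0.12, 0.10] in B6.SLE123. Ifi213 had 34.1, 37.6 and 34.0 CPM and a ratio of -0.01 [-0.14, 0.12] in B6.SLE123, with populations from 23.7 to 46.0 CPM in that library. For both genes the interval of the ratio included 0. Ifi208 had 34.6, 42.7 and 31.1 CPM, with a ratio of -0.16 [-0.29, -0.02] in B6.SLE123 and 0.30 [0.19, 0.42] in Ang II. Its Ang II populations (37.9 to 47.3 CPM) lay mostly above those of control (30.1 to 38.5 CPM), with an overlap. Ifi207, Ifi205 and Ifi204 were near the limit of detection in B cell-like cells, with 21, 17 and 32 UMIs for Ifi207, 15, 23 and 8 for Ifi205 and 11, 10 and 13 for Ifi204. These are too few to rank their ratios.

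**Figure D1:**
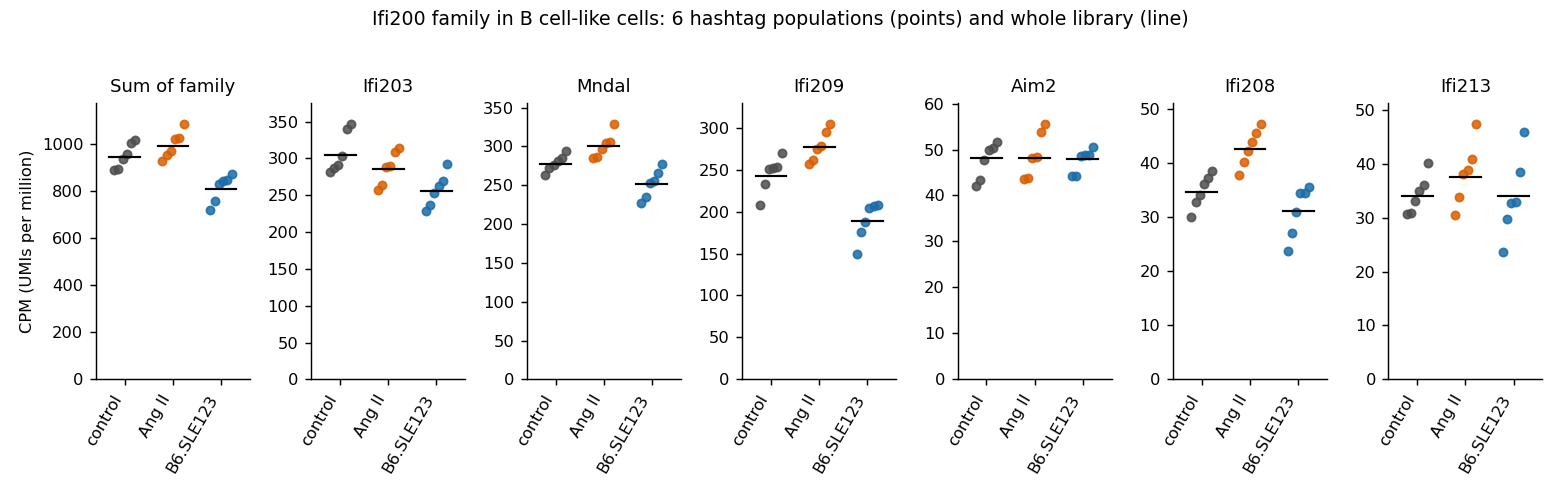
CPM (linear axis from 0) of the family sum and of 6 members in B cell-like cells, with 1 point for each of the 6 hashtag populations of a library and a line for the whole library. The B6.SLE123 points of the family sum (718 to 874 CPM) all lie below the control points (888 to 1017 CPM), whereas those of Aim2 lie at the same height. Among all genes tested, 10.3% had all B6.SLE123 populations below those of control. Germinal centre B cell-like cells are included in the points.

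No member passed a 2-fold difference in B cell-like cells: 0 of 7 tested in B6.SLE123 and 0 of 6 tested in Ang II. Among all genes with at least 50 UMIs, 5.1% were 2-fold higher and 1.69% 2-fold lower in B6.SLE123 (11343 tested), and 1.04% were higher and 0.556% lower in Ang II (11327 tested). The members' median log2 ratio was -0.14 in B6.SLE123, where the median of all genes was -0.05, and 0.13 in Ang II, where it was 0.06. For no single member did the 6 hashtag populations of a library all lie on 1 side of those of control. Among all genes tested this occurred for 9.24% (above) and 10.3% (below) in B6.SLE123 and for 7.75% and 4.91% in Ang II.

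Within B cell-like cells, the family's CPM was lowest in germinal centre B cell-like cells, the cells of the site where B cells are selected for binding antigen. This held for 5 of the 6 members with enough UMIs and was not seen for Aim2. The gate asked for at least 3 of 6 markers, among them S1pr2, Gcsam and Bcl6. It took 44, 59 and 403 cells, or 0.339%, 0.519% and 3.25% of B cell-like cells. Their median depth was 5551.5, 6523 and 5155 UMIs, against 1733, 2663 and 1831 UMIs in the other B cell-like cells outside the cycling and marginal zone gates, and cell-cycle genes such as Birc5 were among their leading genes.

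Ifi203 had 14.7, 19.6 and 9.04 CPM in germinal centre B cell-like cells, from 4, 8 and 22 UMIs, against 310, 292 and 286 CPM in other B cell-like cells. This was 21.0-, 14.9- and 31.6-fold lower (log2 ratios of -4.40 [-6.27, -3.04], -3.90 [-5.11, -2.92] and -4.98 [-5.66, -4.38]). With a gate of at least 2 markers the log2 ratios to the rest of the B cell-like cells were nearer 0, at -2.36, -1.84 and -4.27. The gap was present in each of the 3 libraries under both gates. Mndal had 29.5, 27.0 and 12.3 CPM against 281, 305 and 277 CPM, or 9.53-, 11.3- and 22.5-fold lower (log2 ratios of -3.25 [-4.46, -2.27], -3.50 [-4.50, -2.66] and -4.49 [-5.06, -3.98]). In the 6 hashtag populations of B6.SLE123, with 36 to 95 such cells each, Ifi203 spanned 0 to 14.4 CPM (median 11.7) and Mndal 4.11 to 21.0 CPM (median 14.2). Every one of these populations was far below the lowest B cell-like population of that library, at 228 CPM for both genes. Counted per cell rather than per UMI, Ifi203 also was lower, with 0.0909, 0.136 and 0.0546 UMIs per germinal centre B cell-like cell against 0.603, 0.846 and 0.614, and Mndal, Ifi208 and Ifi213 were lower per cell as well in every library.

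Ifi208 and Ifi213 were also low in the germinal centre gate. Ifi208 had 1, 1 and 7 UMIs there, and in B6.SLE123 it was at 2.88 against 34.5 CPM, 12.0-fold lower (log2 ratio of -3.58 [-4.90, -2.53]). Ifi213 had 0 UMIs in control and Ang II, at least 2.97- and 4.91-fold lower with the limit of 3 counts per library. In B6.SLE123 Ifi213 was at 4.52 against 37.9 CPM, or 8.40-fold lower (log2 ratio of -3.07 [-4.08, -2.22]). Ifi209 moved less than these genes, with 129, 140 and 94.5 CPM against 253, 289 and 204 CPM, or 1.97-, 2.07- and 2.16-fold lower. The interval of its log2 ratio lay below 0 in every library, and in B6.SLE123 it was -1.11 [-1.30, -0.92]. Per cell the direction turned, with 0.795, 0.966 and 0.571 Ifi209 UMIs in germinal centre B cell-like cells against 0.492, 0.839 and 0.437 in other B cell-like cells, whose total UMIs were fewer. With the gate of at least 2 markers its ratio in Ang II was -0.58, under 2-fold.

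Aim2 did not share this pattern. It had 66.3, 44.1 and 40.3 CPM in germinal centre B cell-like cells against 49.0, 49.4 and 50.1 CPM in other B cell-like cells. The log2 ratios were 0.43 [-0.33, 1.10], -0.16 [-0.92, 0.50] and -0.32 [-0.63, -0.02], and per cell its UMIs were higher, at 0.409, 0.305 and 0.243 against 0.0953, 0.143 and 0.108. Of the 6 members tested, 4, 5 and 5 were 2-fold lower in the germinal centre gate, where 14.7%, 14.4% and 16.9% of all genes tested were. The members' median log2 ratio was -2.41, -2.90 and -3.33, where that of all genes was 0.08, 0.03 and -0.01. The family sum was 243, 233 and 164 CPM against 963, 1016 and 891 CPM.

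Cells with cycling markers but not the germinal centre ones (43, 23 and 169 cells) kept more of the family. Ifi203 was at 284, 222 and 161 CPM and Mndal at 329, 217 and 179 CPM, both above their germinal centre values in every library. The family sum of these cycling-like cells was 874, 692 and 548 CPM. Marginal zone B cell-like cells (910, 1061 and 681 cells), which respond early to blood-borne antigen, were near the other B cell-like cells for Ifi203 (291, 276 and 252 CPM) and Mndal (274, 298 and 266 CPM). They were lower for Ifi209, at 185, 227 and 155 CPM (log2 ratios of -0.45, -0.35 and -0.39).

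**Figure D2:**
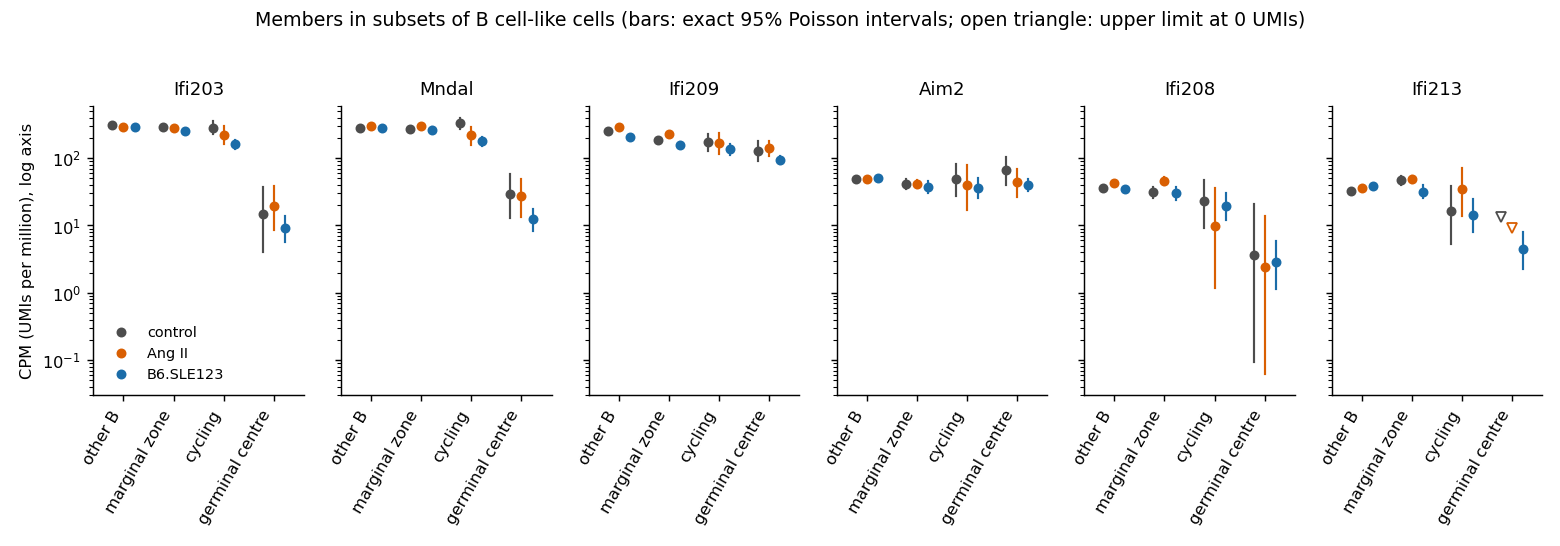
CPM (log axis) of 6 members in 4 subsets of B cell-like cells, coloured by library, with exact 95% Poisson intervals as bars and open triangles for the upper limit where 0 UMIs were counted. Ifi203 falls from 286 to 310 CPM in other B cell-like cells to between 9.04 and 19.6 CPM in germinal centre B cell-like cells, whereas Aim2 stays between 36.4 and 66.3 CPM in all 4 subsets.

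Germinal centre B cell-like cells were more frequent in the B6.SLE123 library, so the comparison of libraries was repeated without them, a choice made after seeing the data. The family sum against control then had a log2 ratio of -0.13 [-0.16, -0.11] in B6.SLE123 in place of -0.22, and 0.08 in Ang II. Ifi203 moved from -0.25 to -0.14 and Mndal from -0.14 to -0.04, whereas Ifi209 moved from -0.36 to -0.31. Whether the hashtag populations of the family sum stay apart without germinal centre B cell-like cells was not tested.

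Ifi204, Ifi205 and Ifi207 were myeloid genes in this spleen. Ifi204, whose product p204 was described in macrophages and takes part in the response to cytosolic DNA, was highest in monocyte-like cells (308, 137 and 293 cells) at 219, 189 and 182 CPM. This was 544-, 677- and 417-fold above B cell-like cells, where Ifi204 had 0.403, 0.279 and 0.436 CPM. Its monocyte hashtag populations with at least 20 cells (5, 4 and 6 of them) spanned 139 to 308, 135 to 241 and 147 to 300 CPM, which overlap widely. Macrophage-like cells (27, 46 and 166 cells) had 156, 96.4 and 149 CPM of Ifi204, from only 5, 5 and 41 UMIs. A UMI of Ifi204 was found in 48.1%, 49.6% and 38.9% of monocyte-like cells (median depth 4008.5, 5526 and 3028 UMIs) and in 0.0693%, 0.0879% and 0.105% of B cell-like cells (median depth 1779, 2753 and 1938 UMIs).

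Ifi207 was shared by macrophage-like cells (281, 289 and 200 CPM) and monocyte-like cells (174, 222 and 200 CPM), which in control did not differ beyond counting error. The macrophage-like values rest on 9, 15 and 55 UMIs. Ifi207 was also found in plasmacytoid dendritic cell-like cells at 47.3, 54.3 and 64.7 CPM and in conventional dendritic cell-like cells at 35.1, 74.7 and 52.9 CPM. In monocyte-like cells it stood 226-, 468- and 186-fold above B cell-like cells. Ifi205 was instead highest in conventional dendritic cell-like cells (45, 62 and 67 cells), the cells that prime T cells, at 158, 248 and 262 CPM. There it stood 287-, 387- and 975-fold above B cell-like cells, where its UMIs were few. Monocyte-like cells had 56.9, 26.6 and 39.6 CPM of Ifi205, and macrophage-like, NK cell-like and plasmacytoid dendritic cell-like cells had 0 UMIs in all 3 libraries. In macrophage-like cells 0 UMIs allowed up to 93.6, 57.8 and 10.9 CPM, taking 3 counts as the limit. In control and Ang II that limit lies above the level of monocyte-like cells. Plasmacytoid dendritic cell-like cells were also few (34, 23 and 41 cells).

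Ifi208 had the reverse order, being found in lymphoid classes. It had 38.4, 52.3 and 26.9 CPM in NK cell-like cells and 88.4 CPM in the T cell-like cells of the Ang II library, the only library with at least 20 of them (264 cells that remained after depletion). NK cell-like and B cell-like cells of control did not differ beyond counting error. Monocyte-like cells had 4.12, 2.66 and 5.08 CPM of Ifi208, from 5, 2 and 5 UMIs. Ifi213, whose upstream stretch is nearly that of Ifi208, was found in monocyte-like cells as well, at 43.7, 25.3 and 43.7 CPM. In NK cell-like cells Ifi213 had 9.38, 14.9 and 33.6 CPM, with hashtag populations from 0 to 27.5, 7.54 to 23.6 and 26.9 to 39.5 CPM. The B6.SLE123 populations overlapped only the highest of control, but the 2 libraries together gave 40 UMIs, under the 50 asked for.

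Ifi203, Mndal, Ifi209 and Aim2 were broad but not general. Ifi203 had 228, 237 and 233 CPM in NK cell-like cells and 214, 125 and 171 CPM in monocyte-like cells. Aim2 was highest in conventional dendritic cell-like cells of control (101 CPM), which did not differ from monocyte-like cells (75.1 CPM) beyond counting error, and was lower in NK cell-like cells (10.3, 20.5 and 21.3 CPM). Neutrophil-like cells (621, 664 and 670 cells), with S100a9 and Retnlg among their leading genes, had little of these members: Ifi203 was at 5.58, 3.49 and 2.93 CPM and Mndal at 3.19, 2.79 and 2.93 CPM. Plasma cell-like cells, the antibody-secreting cells, reached 20 cells only in B6.SLE123 (201 cells) and had 10.4 CPM of Ifi203, 19.8 CPM of Mndal and 3.95 CPM of Aim2. Their median depth was 9833 UMIs, so few UMIs of the family were found in cells of high RNA content. The family sum was highest in monocyte-like cells, at 1240, 1047 and 1065 CPM, and was 88.5, 34.6 and 43.4 CPM in neutrophil-like cells. In Ang II the monocyte-like value rested on 787 UMIs and was close to that of B cell-like cells (993 CPM).

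**Figure D3:**
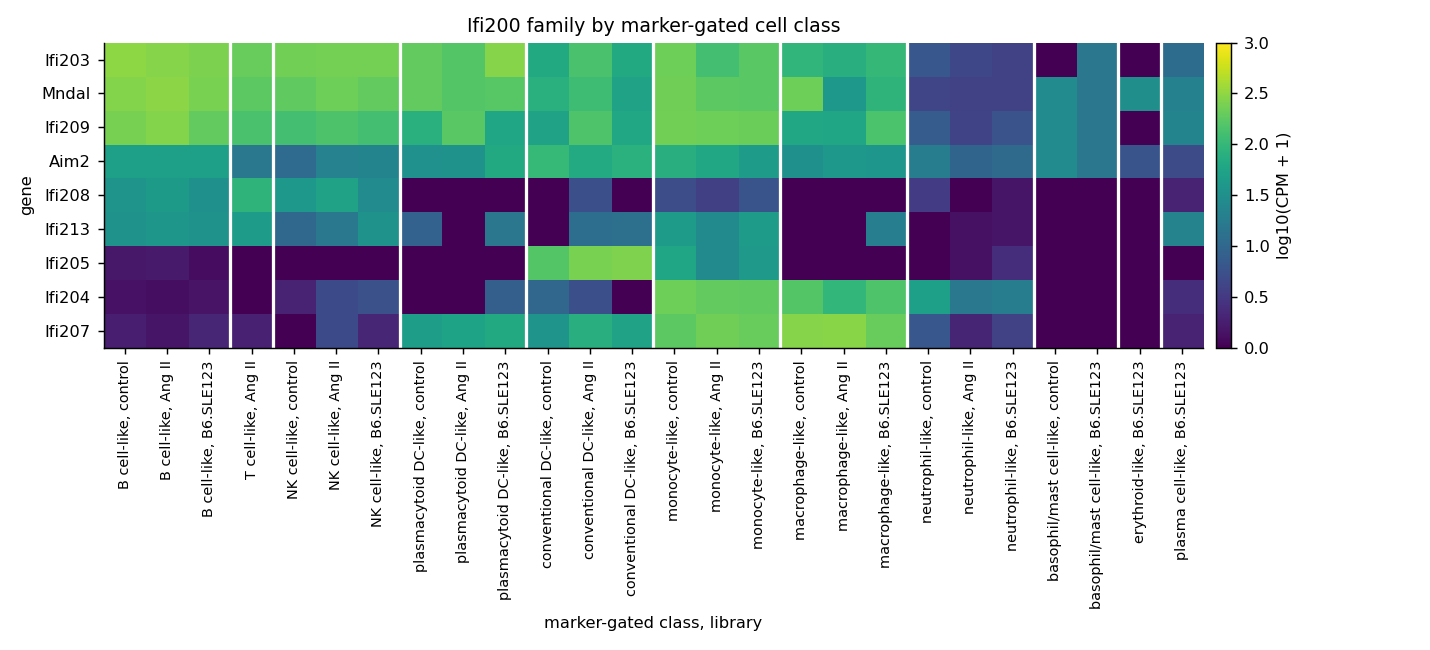
Level of 9 members (rows) as log10(CPM + 1), by colour, in each marker-gated class and library with at least 20 cells (columns, with white lines between classes). Ifi204 and Ifi207 are bright in monocyte-like and macrophage-like columns (219 and 174 CPM in control monocyte-like cells), Ifi205 is bright in the conventional dendritic cell-like (DC-like) columns (158 to 262 CPM), and Ifi203, Mndal and Ifi209 are dark only in neutrophil-like, basophil/mast cell-like, erythroid-like and plasma cell-like columns.

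Outside B cells, 5 ratios of members to control passed 2-fold. Ifi204 in neutrophil-like cells was 47.8, 15.02 and 17.6 CPM, with log2 ratios to control of -1.67 [-2.27, -1.08] in Ang II and -1.45 [-2.08, -0.83] in B6.SLE123. Its hashtag populations overlapped, with 15.6 to 114 CPM in control, 3.45 to 61.7 in Ang II and 0 to 65.0 in B6.SLE123. Ifi204 was the only member tested in that class, where 1.91% (Ang II) and 6.43% (B6.SLE123) of all genes tested were 2-fold lower. In the same gate the monocyte gene Csf1r was at 58.2, 29.0 and 24.9 CPM and the B cell gene Cd79a at 51.8, 30.7 and 29.3 CPM, and their part in the result was not tested.

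In conventional dendritic cell-like cells, 2 of 5 members tested were 2-fold higher in Ang II, where 2.93% of all genes were: Ifi203, at 136 against 65.8 CPM (log2 ratio of 1.05 [0.22, 1.97]), and Ifi209, at 149 against 52.6 CPM (log2 ratio of 1.51 [0.61, 2.53]). These rest on 62 cells in Ang II and 45 in control. On leaving out each hashtag population, Ifi203 spanned 0.90 to 1.21 and was under 2-fold without C0301 or C0305 of Ang II or C0304 or C0305 of control, and Ifi209 spanned 1.11 to 3.00, the latter without C0301 of control. In monocyte-like cells, Ifi205 was 2-fold lower in Ang II, at 26.6 against 56.9 CPM (log2 ratio of -1.10 [-1.89, -0.36]). It was 1 of 8 members tested, where 0.851% of all genes were lower. Its hashtag populations with at least 20 cells overlapped widely, at 12.7 to 90.9 CPM in control and 0 to 74.7 in Ang II. Leaving out each hashtag population in turn gave log2 ratios from -2.23 (without C0301 of Ang II) to -0.73 (without C0304 of Ang II), and the ratio was under 2-fold without C0302, C0303, C0304 or C0306 of Ang II or C0303, C0305 or C0306 of control. The monocyte marker Ly6c2 in that gate was at 1999, 830 and 2359 CPM, and its part in the result was not tested.

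Across cells of 1 library, 5 of the 6 members detected in B cell-like cells were higher in cells that expressed interferon-response genes, and Aim2 was not. Each B cell-like cell was thinned to 1000 UMIs and grouped by its UMIs of 17 interferon-response genes, none of them a member. Cells with at least 3 such UMIs (503, 481 and 540 cells, or 4.14%, 4.45% and 4.79%) were set against cells with 0 (7630, 6687 and 6679 cells). Ifi208 was at 147, 170 and 135 CPM in the former and 28.3, 31.4 and 28.9 CPM in the latter, which is 5.20-, 5.43- and 4.68-fold higher (log2 ratios of 2.38 [1.98, 2.76], 2.44 [2.05, 2.82] and 2.23 [1.82, 2.62]). Ifi213 was at 79.5, 162 and 137 CPM against 26.7, 23.3 and 29.5 CPM (log2 ratios of 1.57 [1.05, 2.07], 2.80 [2.39, 3.20] and 2.22 [1.81, 2.61]). These were the highest ratios of the family in every library.

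Ifi203 was at 656, 595 and 517 CPM against 278, 268 and 256 CPM, with log2 ratios of 1.24, 1.15 and 1.02. Ifi209 was at 525, 613 and 454 CPM against 224, 269 and 186 CPM (log2 ratios of 1.23, 1.19 and 1.29). Mndal was at 505, 514 and 443 CPM against 262, 276 and 247 CPM, which stayed under 2-fold (log2 ratios of 0.95, 0.90 and 0.84). Aim2 was at 51.7, 47.8 and 66.7 CPM against 52.6, 45.5 and 48.8 CPM. Its log2 ratios were -0.02 [-0.66, 0.55], 0.07 [-0.61, 0.69] and 0.45 [-0.09, 0.95], so a rise of the size seen for Ifi203 lay above the interval in all 3 libraries. In each library 4 of the 6 members were 2-fold higher, where 2.45%, 2.11% and 1.81% of all genes tested were. The members' median log2 ratio was 1.23, 1.17 and 1.15.

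**Figure D4:**
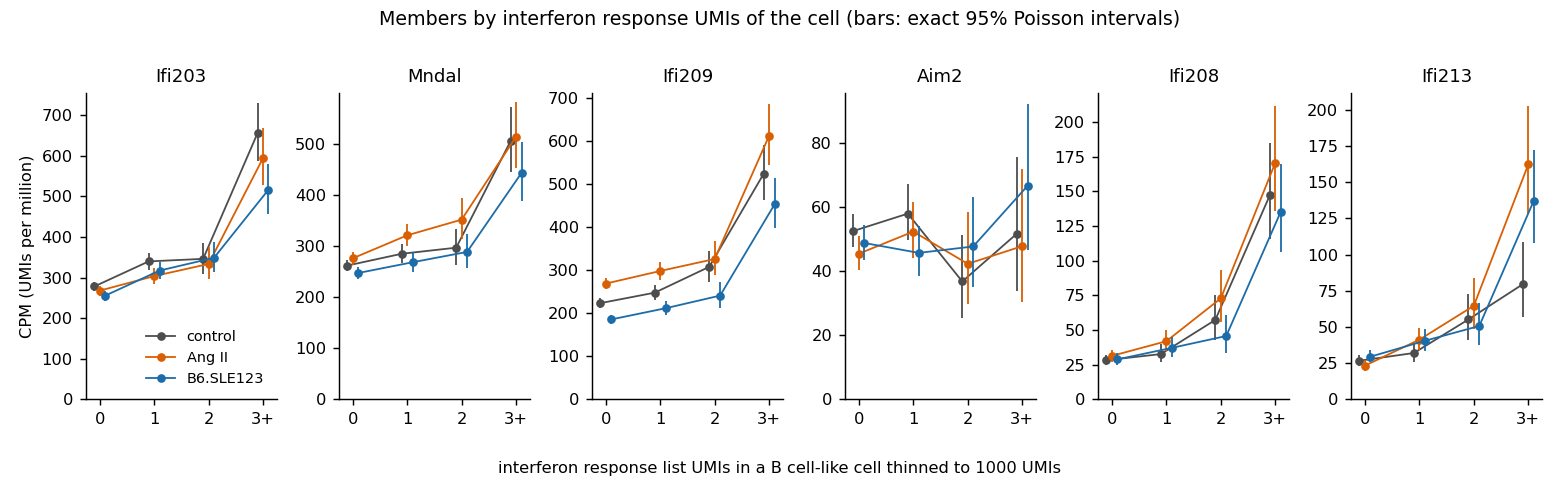
CPM (linear axis from 0) of 6 members in B cell-like cells thinned to 1000 UMIs, by the number of UMIs of the interferon-response list in the cell (0, 1, 2, or 3 and more), coloured by library, with exact 95% Poisson intervals as bars. Ifi208 climbs from between 28.3 and 31.4 CPM at 0 to between 135 and 170 CPM at 3 and more, whereas the intervals of Aim2 overlap across the axis.

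In B cell-like cells, the 17 interferon-response genes themselves had a median log2 ratio of 0.16 in B6.SLE123, where that of all genes was -0.05. Of the 17 genes, 9 were above 0 there. In Ang II, with 16 of them tested, the median was -0.02, where that of all genes was 0.06. Only 1 gene passed 2-fold: Ifi44, with 46 UMIs in B6.SLE123 against 11 in control (log2 ratio of 1.94 [0.97, 3.03]). Of 22 genes of cytosolic DNA sensing and inflammasomes, the pathway in which AIM2 acts, 19 were tested and 0 passed 2-fold in either library. Tmem173, which encodes the DNA-sensing adaptor STING, had the lowest ratio in B6.SLE123, at 43.5 against 61.7 CPM (-0.50 [-0.61, -0.40]). Rnaseh2b, a subunit of an RNase that clears RNA from DNA, had the highest (0.79 [0.62, 0.96]). Pycard, which encodes the AIM2 partner ASC, had a log2 ratio of -0.22 [-0.30, -0.14] in Ang II.

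Among the nearest relatives that are no members, Ifi211 went the other way from the family in B6.SLE123 B cell-like cells. It had 73 UMIs there against 19 in control, a log2 ratio of 1.81. Ifi206 was at -0.63 and Ifi214 at -0.37. Because Ifi204 and Ifi211 share 49.0% of the windows of Ifi204, and Ifi211 was also at 191, 158 and 176 CPM in monocyte-like cells, reads of these genes cannot be told apart in the shared windows.

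Genes on both sides of the cluster included some with ratios farther from 0 than those of the members and many without. Of the genes nearest to the members' span with at least 50 UMIs, Dusp23 had a log2 ratio of -0.86 and 4933439K11Rik of -0.09 in B6.SLE123 B cell-like cells on the proximal side. On the distal side, Fh1, the mitochondrial fumarate hydratase, was at 0.63 (108 against 69.6 CPM) and Kmo, an enzyme of tryptophan breakdown, at -1.07 (29.8 against 62.5 CPM). Within 5 Mb the highest was the IgG receptor gene Fcgr4 (2.18, 99 against 20 UMIs) and the lowest the planar polarity gene Vangl2 (-2.27, 38 against 168 UMIs). Members aside, 6 of 54 genes in the 5 Mb before the middle of the family passed 2-fold (11.1%) and 3 of 17 in the 5 Mb after it (17.6%), against 6.73% on other chromosomes. None of the 7 members tested was among them. The 6 before were Nuf2 (2.02), Sh2d1b1 (1.46), Fcgr4 (2.18), Fcer1g (1.27), Vangl2 (-2.27) and Igsf9 (-1.44), and the 3 after were Exo1 (1.36), Kmo and Ifi211. These shares include germinal centre B cell-like cells, whose part in them was not tested. The counts include the relatives Ifi206, Ifi211 and Ifi214, which are no members but lie inside the members' span. Ifi211 (log2 ratio of 1.81) was among the 3 genes past 2-fold after the middle. In Ang II, 1 of 53 genes before (1.89%) and 0 of 16 after passed, against 1.62% on other chromosomes. Over the whole of chromosome 1 without the members, the shares were 7.87% in B6.SLE123 and 1.24% in Ang II.

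**Figure D5:**
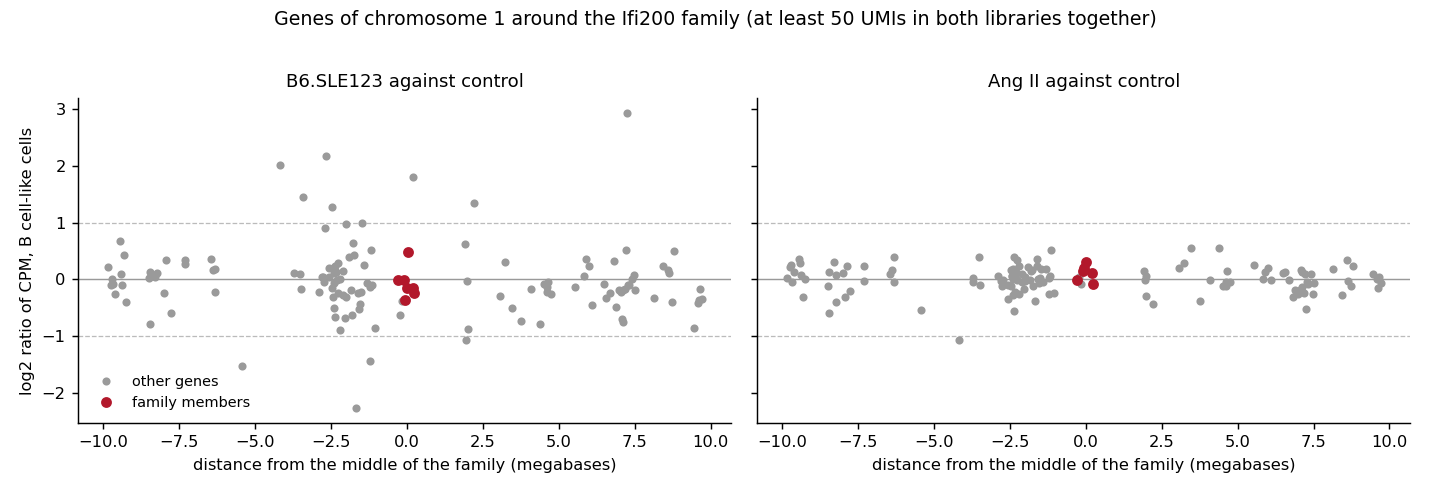
log2 ratio of CPM against control in B cell-like cells (vertical axis) for genes of chromosome 1 by distance in megabases from the middle of the family (horizontal axis), with members in red, other genes in grey and dashed lines at 2-fold. Members lie between -0.36 and 0.48 in B6.SLE123 (left), inside the spread of their neighbours, which reach from -2.27 to 2.18 within 5 Mb.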

How the data were processed

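The authors deposited raw UMI counts for each gene and barcode, and the header names Cell Ranger 6.0.0 as their source, with mm10 as the build. Counts of 6 hashtag antibodies came in the same matrix. A barcode was kept if it had more than 200 but fewer than 3500 genes and a mitochondrial share below 15%. The paper words these limits as RNA counts, which were read here as genes detected. Reading them as UMIs is given below as another setting. The median depth of germinal centre B cell-like cells was above 3500 UMIs in every library, and no value of theirs is given under that reading. Hashtags were called positive by Otsu's method, and a barcode positive for more than 1 was left out as a doublet. A cell joined a class with at least 3 of 8 markers and at least 2 times the hits of any other class. UMIs were summed over each class and library and given as CPM. A comparison needed at least 20 cells in each library and 50 UMIs in both together, and was called past 2-fold.

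With 1 library per group no test was run. The log2 ratios carry exact 95% conditional binomial intervals, levels exact Poisson intervals and shares Clopper-Pearson intervals. These cover counting error only, since UMIs of pooled mice say nothing of the spread between mice. A count of 0 was given a limit of 3 counts. Ratio and hashtag steps were checked on simulated data. Python 3.11.15, numpy 2.4.6, scipy 1.17.1, pandas 2.3.3 and matplotlib 3.10.9 were used.

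The members, marker lists, interferon-response and DNA-sensing lists were chosen with earlier results of these data known. All 10 members are named whatever their values. Of the lists, genes with the highest and lowest ratios at 50 or more UMIs are named, and around the cluster the nearest genes on each side and the extremes within 5 Mb. The subsets of B cell-like cells used at least 3 of 6 markers, in the order germinal centre, cycling and marginal zone. Not every marker is reported here. Promoters come from RefSeq (GRCm38.p6), with entries for 9 of the 10 members and none used for Ifi204. Protein sequences were not analysed here.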

Additional observations from a re-analysis of the deposited data

How the results depend on the processing

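Each ratio of the family sum to control was recomputed under other settings, and none of them turned a family ratio in B cell-like cells to the other side of 0. The B6.SLE123 log2 ratio in B cell-like cells (-0.22) was -0.078 with the limits on cells read as UMIs, -0.25 with no limits and with a gate of more hits than any other class, -0.17 with median-of-ratios scaling, -0.11 with thinned cells and -0.13 without germinal centre B cell-like cells, and leaving out each hashtag population in turn gave -0.24 to -0.19. Over all kept cells this ratio (-0.36) was -0.10, -0.41, -0.28 and -0.17 under the first 2 limits, that scaling and thinning, -0.31 with CPM without immunoglobulin segments, haemoglobin and mitochondrial genes and -0.33 without the top member, with a leave-one-out range of -0.40 to -0.29. For Ang II in B cell-like cells (0.07) it was 0.097 with the limits as UMIs, 0.017 with median-of-ratios scaling and 0.15 without the top member, with 0.047 to 0.098 on leaving out 1 population. For Ang II over all kept cells (0.0053) it was 0.086 and -0.021 under the limits as UMIs and no limits, -0.020 with the scaling, 0.040 when thinned and 0.065 without the top member, with a range of -0.036 to 0.032, so this ratio had no fixed sign. The number of members past 2-fold in B cell-like cells (0 in both) was 1 in B6.SLE123 with no removal of doublets and with no minimum above 1 UMI, and 1 in Ang II with the gate of more hits, and stayed 0 on leaving out each population. Single members turned sign in 46 of 679 settings, 41 of them where the interval of the printed ratio included 0 (Aim2 in Ang II, Ifi213 in B6.SLE123, and Aim2 in B6.SLE123 B cell-like cells, with Ifi204 in B6.SLE123 and Ifi205 in Ang II over all kept cells). The other 5 were Aim2 in B6.SLE123 over all kept cells (0.017, limits as UMIs), Ifi208 in B6.SLE123 B cell-like cells (0.036, limits as UMIs, and 0.045, thinned), and over all kept cells Ifi207 in Ang II (leave-one-out range -0.61 to 0.0095) and in B6.SLE123 (-0.23 to 0.80), each on leaving out 1 hashtag population. Apart from these 5, 83 settings of single members moved their ratio outside its counting interval and 591 did not. The 41 settings above are counted among these. With a germinal centre gate of at least 2 markers, the log2 ratio to the rest of the B cell-like cells was -2.36, -1.84 and -4.27 for Ifi203, -1.78, -2.18 and -3.79 for Mndal and -0.58 in Ang II for Ifi209. The cause of these moves was not tested, and values with at least 4 markers are not reported here. No paired analysis was possible because each group has 1 library. The gates without germinal centre B cell-like cells and with at least 2 or 4 of their markers and the leaving out of populations in classes other than B cells were chosen after seeing the data. Ifi204 in neutrophil-like cells stayed past 2-fold there, from -2.13 to -1.06 in Ang II and from -1.91 to -1.20 in B6.SLE123. Germinal centre values in control and Ang II rest on 44 and 59 cells, so UMIs of Ifi208 and Ifi213 there are too few for more than a limit.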

Other observations

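Over 26 sums of a class and library, the log2(CPM + 10) profiles of Ifi203, Mndal and Ifi209 were alike, with a Pearson r of 0.93 for Ifi203 with Mndal and 0.91 with Ifi209. These correlations are descriptions across sums that share libraries and depth. Ifi203 and Mndal also overlap on the same strand and share windows, as given above, and the part of this in their likeness was not tested. Among 11222 genes, Ifi204 was most like the NK-receptor family gene Klra2 (0.98) and the monocyte gene Csf1r (0.95), Ifi205 most like Rtn1 (0.98), Nectin1 (0.97) and Naaa (0.93), and Ifi207 most like Plxnb2 (0.97). Ifi208 was most like Scml4 and the lymphocyte GTPases Gimap7 (0.96) and Gimap3 (0.95), and Aim2 most like Irf5 (0.87). Ifi204 and Ifi207, both monocyte genes here, had an r of 0.77. In thinned B cell-like cells, the number of cells with UMIs of both members of a pair was a median of 1.18 (control), 1.22 (Ang II) and 1.19 (B6.SLE123) times the product of their shares over 15 pairs.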
